A study of Mus musculus with 13 samples.

Results

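Glycolysis and the response to low oxygen were followed through 36 genes in mouse CD8+ T cells with and without Batf, before and after activation. The list is made up by function, although earlier results of these data were known when it was drawn up: carriers of glucose and lactate, the enzymes from hexokinase to lactate dehydrogenase, the oxygen-sensing proteins Hif1a, Egln1 and Egln3, and textbook targets of hypoxia. The arrays measured 33 of the 36 through a probe set assigned to that gene alone, out of 18194 genes. No probe set was assigned to Gpi1 or Eno1, and the probe sets of Bnip3l are shared with a pseudogene, so those genes were not analysed here. For the 21 of them with several probe sets, the brightest one on average stands for the gene.

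The cells were P14 CD8+ T cells of C57Bl/6 background, whose T cell receptor comes from a transgene in both genotypes, and were purified by magnetic removal of other cells. The 13 arrays comprise 4 of Batf-/- cells at day 3, 4 of wild-type cells at day 3, 3 of Batf-/- naive cells and 2 of wild-type naive cells. Day 3 cells had received plate-bound antibodies against CD3 and CD28 with 100 U/ml of recombinant human IL-2 for 3 days, and naive cells were taken at day 0. The Batf-/- cells came from BATF-/- mice, and the labels name no restriction of the deletion to a cell type. The labels give no age and name no animals or cultures behind the arrays of a group, so all p-values measure the spread between these arrays, which may be technical.

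Glycolysis splits glucose into pyruvate and yields ATP without oxygen, and activated T cells run it at a high rate even when oxygen is present, passing much of the pyruvate on to lactate. HIF-1, made of Hif1a and Arnt, is the main activator of these genes in low oxygen. In the presence of oxygen the prolyl hydroxylases Egln1 and Egln3 mark Hif1a for destruction through Vhl, and T cell receptor and cytokine signals can also raise Hif1a in activated T cells. Egln3 is itself a HIF-1 target, as are many glycolytic enzymes. HIF-1 binds DNA at sites whose core is an A or a G followed by CGTG. Batf, an AP-1 transcription factor, acts together with Irf4 in activated lymphocytes.

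Because the genes are commonly described as HIF-1 targets, the letters ACGTG, the form of the core with A, were searched on both strands of the 250 bases before each annotated gene start (RefSeq, GRCm38.p6). Of 30 measured genes with such a window, 20 (66.7%) held a match in at least 1 window, against 18.5% of all 27025 genes with a window. Counted by window, it was 23 of 51 windows of the listed genes (45.1%), against 16.6% of 32851. In CACGTG the matches of the 2 strands overlap, and 7 of the 51 windows held these letters (6.02% of all windows did). The background of all genes was not limited to measured genes or matched for base composition. A match is a description of the letters and was not tested for binding. The form with G was not searched. The 6 sequences below belong to the genes with the largest day 3 rises in wild-type cells that have a window, and capitals mark the matches. They are Aldoc (chr11:78322823-78323072, plus strand), Ak4 (chr4:101419453-101419702, plus strand), Bnip3 (chr7:138909507-138909756, minus strand), Egln3 (chr12:54203875-54204124, minus strand), P4ha2 (chr11:54100674-54100923, plus strand) and Ankrd37 (chr8:45999851-46000100, minus strand).
Aldoc: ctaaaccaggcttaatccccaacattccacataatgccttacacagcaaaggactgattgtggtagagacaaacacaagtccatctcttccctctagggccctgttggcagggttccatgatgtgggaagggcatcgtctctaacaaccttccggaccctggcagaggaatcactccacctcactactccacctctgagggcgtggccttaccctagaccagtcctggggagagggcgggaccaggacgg
Ak4: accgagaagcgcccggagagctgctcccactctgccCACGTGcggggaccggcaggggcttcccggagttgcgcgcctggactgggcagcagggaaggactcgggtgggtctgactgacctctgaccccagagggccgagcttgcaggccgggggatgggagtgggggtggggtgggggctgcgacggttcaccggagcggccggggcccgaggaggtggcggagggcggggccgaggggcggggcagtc
Bnip3: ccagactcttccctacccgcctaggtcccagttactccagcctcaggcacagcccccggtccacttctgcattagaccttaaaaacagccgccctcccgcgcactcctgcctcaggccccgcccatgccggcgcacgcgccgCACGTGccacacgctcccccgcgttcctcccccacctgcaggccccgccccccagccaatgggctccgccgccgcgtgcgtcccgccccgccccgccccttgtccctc
Egln3: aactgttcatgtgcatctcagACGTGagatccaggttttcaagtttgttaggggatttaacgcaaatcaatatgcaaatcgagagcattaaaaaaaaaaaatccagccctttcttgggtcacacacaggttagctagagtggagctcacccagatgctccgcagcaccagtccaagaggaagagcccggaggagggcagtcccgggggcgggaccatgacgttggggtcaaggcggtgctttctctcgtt
P4ha2: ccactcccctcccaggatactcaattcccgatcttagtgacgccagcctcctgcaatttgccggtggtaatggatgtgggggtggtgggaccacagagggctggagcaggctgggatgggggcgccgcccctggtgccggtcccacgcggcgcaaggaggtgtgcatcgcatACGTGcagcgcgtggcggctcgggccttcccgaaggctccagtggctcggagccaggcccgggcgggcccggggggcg
Ankrd37: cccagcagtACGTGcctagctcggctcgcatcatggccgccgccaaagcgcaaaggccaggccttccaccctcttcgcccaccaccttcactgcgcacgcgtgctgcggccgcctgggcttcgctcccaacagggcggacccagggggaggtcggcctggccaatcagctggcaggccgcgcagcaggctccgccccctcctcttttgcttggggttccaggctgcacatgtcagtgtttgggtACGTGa
Counted from the start (the base before it is -1), the first base of the match lies at -229 in Egln3, at -78 in P4ha2 and at -241 and -6 in Ankrd37. In Ak4 and Bnip3 the capitals are a CACGTG, beginning at -214 and -108. Ak4 has 4 windows, and the other 3 hold no match. Neither of the 2 Aldoc windows holds ACGTG, and the first of them is shown. The printed Aldoc window does hold the form with G (GCGTG), in lower case because only ACGTG is marked. The printed Bnip3, P4ha2 and Ankrd37 windows hold it too. No window of the other genes is printed.

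Values are log2 intensities, and each unit is a doubling of signal. A difference is the mean of the first-named group minus that of the other, with its standard error (SE) from limma. A gene passed the test at an adjusted p below 0.05 over all 18194 genes (two-sided, Benjamini-Hochberg). Signals with a mean below 4.72, the lowest 40% of probe sets, are called dim, and a fold change from a dim group is given as "at least", with that group's arrays raised to this limit. Array medians lay between 31.5 and 32.5 in linear intensity, and precision is set by how many arrays there are. Since arrays are normalised to each other, a change is relative to the other genes of the array, and in bulk RNA fewer cells of a type cannot be told apart from less RNA per cell.

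Batf itself, which checks the genotype labels, was lower in Batf-/- than in wild-type arrays at day 3 (-2.88 ± 0.23, adjusted p = 6.9e-05) and in naive cells (-3.41 ± 0.29, adjusted p = 0.000321). The T cell list (Cd8a, Cd8b1, Cd3d, Cd3e and Cd3g) had mean log2 intensities of 11.83 to 11.97 in Batf-/- and 11.93 to 12.03 in wild-type day 3 arrays, and of 11.77 to 12.26 in Batf-/- and 12.15 to 12.28 in wild-type naive arrays. Wild-type day 3 replicate 4 stood apart. It was the lowest of the 4 wild-type day 3 arrays in 28 of the 33 genes (84.8%), against 26.8% of all genes, and its median deviation from the group mean over the 33 genes was -0.16. Among the naive arrays, Batf-/- replicate 1 was the highest of 5 in 15 of 33 genes (45.5%), against 26.2% of all genes. Its mean over the 11 measured neutrophil markers was 8.03, against 4.61 and 5.50 in the other Batf-/- naive arrays and 5.28 and 4.97 in the wild-type ones.

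**Figure D1:**
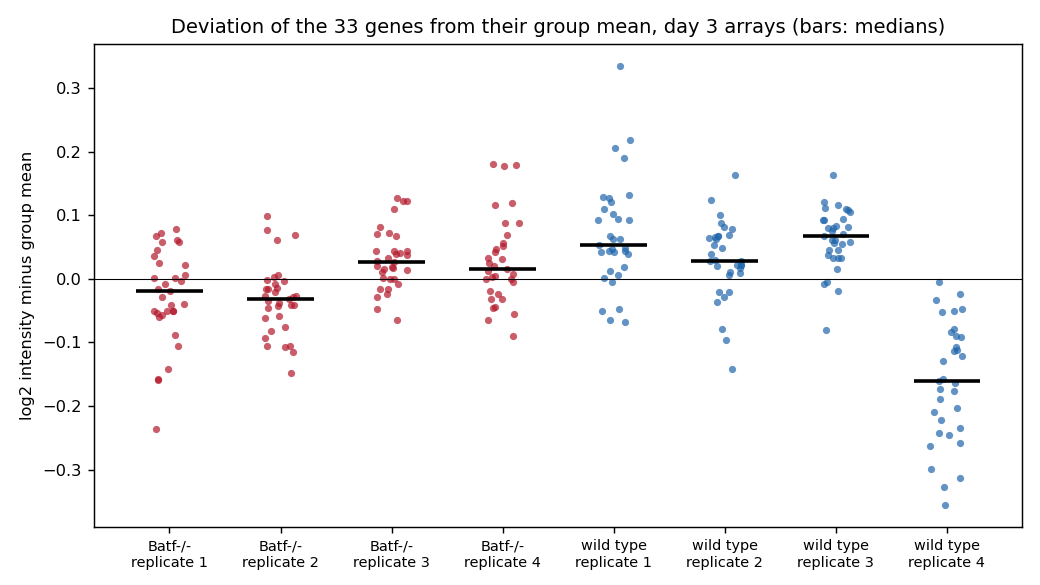
Deviation of each of the 33 genes from its group mean (vertical axis, log2 intensity) in the 4 Batf-/- day 3 arrays (red) and the 4 wild-type day 3 arrays (blue); points are genes and bars are medians. In wild-type replicate 4 the median is -0.16, while the other 7 medians lie between -0.03 and 0.07.

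The comparison of day 3 with naive cells asks how activation changed these genes in each genotype. All 33 genes rose in Batf-/- cells and 32 of 33 rose in wild-type cells, where Slc16a1 (0.24 ± 0.14, adjusted p = 0.200) did not pass. It passed in wild-type cells under 4 alternatives (adjusted p = 0.0134 to 0.0468), among them leaving out Batf-/- naive replicate 1, which enters only through the pooled spread (adjusted p = 0.0324). None fell. Of all 18194 genes, 23.8% rose and 23.2% fell in Batf-/- cells, and 22.4% rose and 23% fell in wild-type cells. All day 3 arrays were above all naive arrays in 32 of the 33 genes in Batf-/- (97.0%) and in 33 in wild-type cells, against 25% and 30.3% of all genes. The median change was 2.50 in Batf-/- and 2.64 in wild-type cells, against 0.05 in both for all genes. A rise that passed and was at least a doubling was seen for the same number of genes in Batf-/- and in wild-type cells, 26 of 33 (78.8%), leaving out Eno2, whose fitted change of 1.05 in wild-type cells lies between dim means. The background, dim genes included, was 5.33% in Batf-/- and 6% in wild-type cells. With the dim naive groups raised to the limit, the medians were 2.32 and 2.53. The rise in Slc16a1 in Batf-/- cells (0.33 ± 0.13, adjusted p = 0.0456) was the weakest call. It was lost under 12 of 23 alternative settings, among them leaving out any of Batf-/- day 3 replicates 2 to 4, Batf-/- naive replicates 2 or 3, or any wild-type day 3 array (adjusted p = 0.0557 to 0.191). Without Batf-/- naive replicate 1 it was 0.52 (adjusted p = 0.000182).

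Markers of other cell types moved in this comparison as well. The 9 measured B cell markers had mean log2 intensities of 5.39 to 5.60 in Batf-/- day 3 against 7.71 to 8.08 in Batf-/- naive arrays, and of 5.47 to 5.59 in wild-type day 3 against 7.03 to 7.43 in wild-type naive arrays. Of these 9, 8 fell in Batf-/- and 6 in wild-type cells, and all 4 measured NK cell markers fell in both. Of 11 neutrophil markers 8 fell in Batf-/- and 3 in wild-type cells, of 6 monocyte and macrophage markers 5 and 4, and of 5 platelet markers 4 in each genotype. Of all genes, 23.2% fell in Batf-/- and 23% in wild-type cells, and the 3 of 11 neutrophil markers are near that share. The part of these markers in the changes of the glycolytic and hypoxia genes was not tested.

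**Figure D2:**
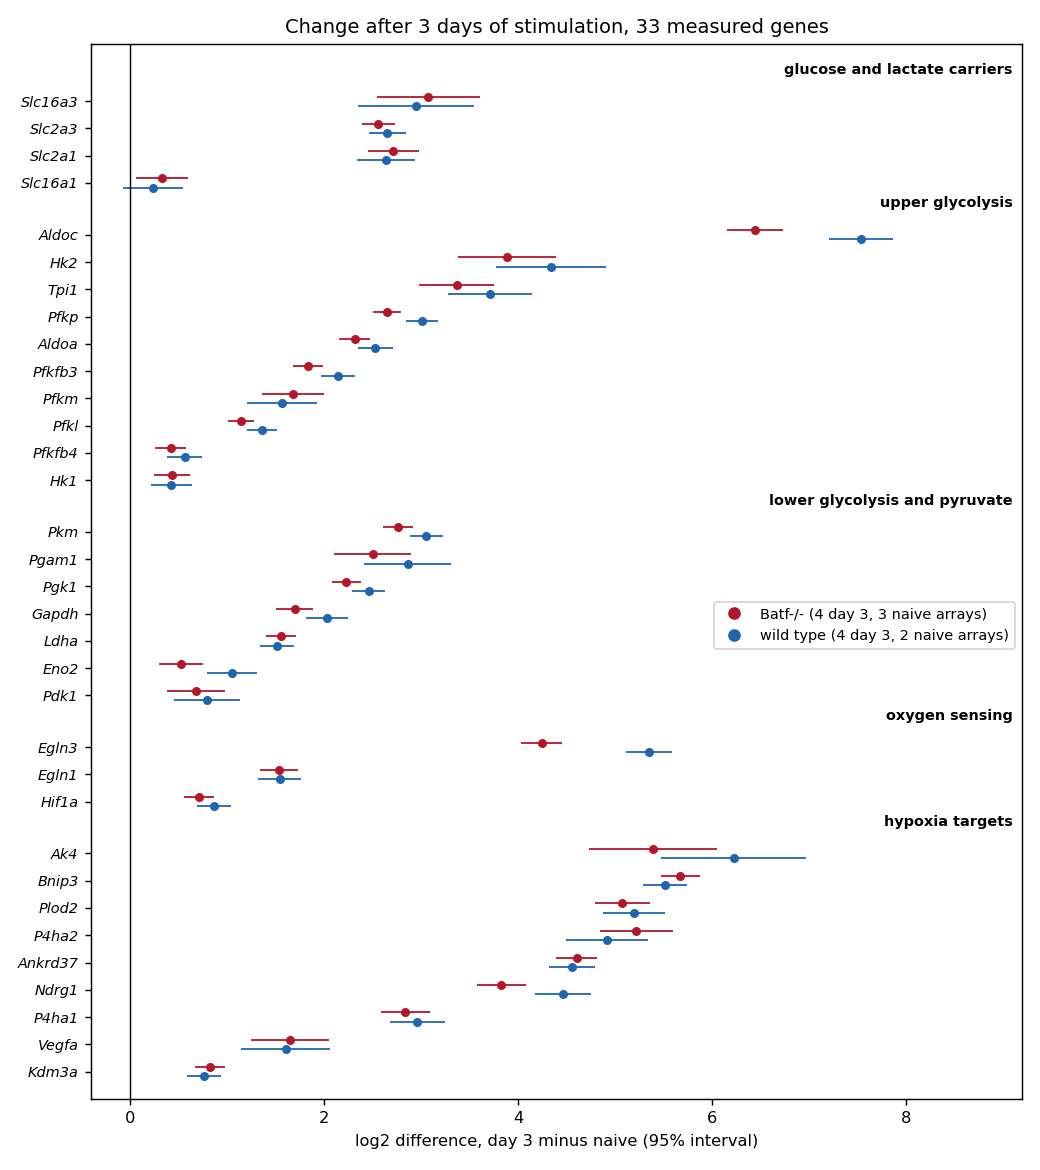
Change between naive and day 3 cells (horizontal axis, log2 difference with its 95% interval) for 33 genes grouped by role, in Batf-/- cells (red, above) and wild-type cells (blue, below). The largest changes belong to Aldoc (6.44 and 7.53), and 5 genes (Slc16a3, Eno2, P4ha2, Plod2 and Ak4) start from dim naive signals, so their plotted values depend on readings near background.

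The glucose transporters Slc2a1 (Glut1) and Slc2a3 (Glut3) rose by similar amounts. Slc2a1 changed by 2.71 ± 0.12 in Batf-/- and 2.64 ± 0.14 in wild-type cells (6.56-fold and 6.24-fold). Slc2a3 changed by 2.56 ± 0.08 in Batf-/- and 2.65 ± 0.09 in wild-type cells. Of the monocarboxylate carriers, Slc16a3 (Mct4), which exports lactate, was dim in naive cells of both genotypes and at least 3.72-fold higher at day 3 in Batf-/- and 3.55-fold in wild-type cells. Slc16a1 (Mct1), which carries lactate in either direction, was already bright in naive cells, with means of 10.88 in Batf-/- and 10.92 in wild-type arrays, and is the gene with the smallest change in wild-type cells.

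In the upper part of the pathway, from hexokinase to triose phosphate isomerase, all 10 measured genes rose in both genotypes, with medians of 2.08 in Batf-/- and 2.34 in wild-type cells. Aldoc, an aldolase best known from brain, had the largest rise of all 18194 genes in wild-type cells and the second largest in Batf-/- cells. Its log2 intensity was 12.48, 12.45, 12.49 and 12.48 in Batf-/- day 3 arrays against 5.81, 5.85 and 6.43 in Batf-/- naive arrays. In wild-type cells it was 12.47, 12.59, 12.58 and 12.44 at day 3 against 4.78 and 5.19 in naive arrays. The day 3 arrays lie close together in both genotypes, and the naive arrays are far below them, with all 3 Batf-/- naive arrays above both wild-type ones. The changes were 6.44 ± 0.13 in Batf-/- cells (87.0-fold, adjusted p = 1.96e-12) and 7.53 ± 0.15 in wild-type cells (185-fold, adjusted p = 1.58e-12). A second Aldoc probe set gave 5.36 ± 0.15 and 5.89 ± 0.17.

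Hk2, the inducible hexokinase that traps glucose in the cell, changed by 3.89 ± 0.23 in Batf-/- and 4.34 ± 0.26 in wild-type cells. Hk1, the constitutive form, changed by 0.43 ± 0.09 and 0.42 ± 0.10. Other isoform pairs were uneven too, without a test of the difference between genes. Aldoa, the aldolase of muscle and most other tissues, changed by 2.32 ± 0.07 in Batf-/- and 2.53 ± 0.08 in wild-type cells, well below Aldoc. Of the phosphofructokinase subunits, Pfkp (2.65 in Batf-/- and 3.01 in wild-type cells) changed more than Pfkm (1.68 and 1.57) and Pfkl (1.14 and 1.36). Pfkfb3, whose product drives phosphofructokinase, changed by 1.83 and 2.14, and its relative Pfkfb4 by 0.42 and 0.56. Tpi1, which interconverts the products of the aldolase step, changed by 3.37 ± 0.18 in Batf-/- and 3.71 ± 0.20 in wild-type cells.

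In the lower part of the pathway all 7 measured genes rose in both genotypes, with medians of 1.70 in Batf-/- and 2.03 in wild-type cells. Pkm, pyruvate kinase, changed by 2.76 ± 0.07 in Batf-/- and 3.05 ± 0.08 in wild-type cells, and Pgam1, phosphoglycerate mutase, by 2.50 ± 0.18 and 2.86 ± 0.21. Pgk1, which makes ATP, changed by 2.23 and 2.46. Gapdh, often used as a reference transcript, changed by 1.70 ± 0.09 in Batf-/- and 2.03 ± 0.10 in wild-type cells (3.25-fold and 4.08-fold). Ldha, which turns pyruvate into lactate, changed by 1.56 and 1.52, and Pdk1, which inhibits pyruvate dehydrogenase, by 0.68 and 0.79. Eno2, the enolase of neurons, rose in intensity in both genotypes, but all of its group means are dim and no fold is given.

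Of the oxygen-sensing genes, Hif1a changed least. Its log2 intensity was 11.14, 11.26, 11.22 and 11.15 in Batf-/- day 3 arrays against 10.37, 10.60 and 10.47 in Batf-/- naive arrays. In wild-type cells it was 11.46, 11.26, 11.32 and 11.32 at day 3 against 10.52 and 10.42 in naive arrays. Day 3 arrays were above naive arrays in both genotypes, with no overlap. The changes were 0.71 ± 0.07 in Batf-/- (1.64-fold) and 0.87 ± 0.08 in wild-type cells (1.83-fold). These are transcript levels, while Hif1a is known to be controlled mostly through its protein. Egln1, the main prolyl hydroxylase acting on Hif1a, changed by 1.54 in both genotypes. Egln3, the inducible one, had 11.52, 11.50, 11.59 and 11.58 in Batf-/- day 3 arrays against 7.50, 7.18 and 7.22 in Batf-/- naive arrays. It had 11.54, 11.47, 11.57 and 11.22 in wild-type day 3 arrays against 6.03 and 6.17 in wild-type naive arrays. The genotypes overlap at day 3 and lie apart in naive cells. The changes were 4.24 ± 0.10 in Batf-/- (18.9-fold) and 5.35 ± 0.11 in wild-type cells (40.8-fold).

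The hypoxia targets outside glycolysis changed most as a group, with medians of 4.6 in Batf-/- and 4.56 in wild-type cells over 9 measured genes, all of which rose (3.83 and 4.47 with dim groups at the limit). Bnip3, a mitochondrial protein that promotes the removal of mitochondria, had 12.59, 12.61, 12.69 and 12.70 in Batf-/- day 3 arrays against 7.16, 6.85 and 6.91 in Batf-/- naive arrays. It had 12.66, 12.65, 12.70 and 12.39 in wild-type day 3 arrays against 7.0 and 7.17 in wild-type naive arrays. The genotypes overlap in both states. Its changes of 5.67 ± 0.09 in Batf-/- (51.0-fold) and 5.52 ± 0.10 in wild-type cells (45.8-fold) ranked 4 and 6 of all genes.

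Ak4, an adenylate kinase of mitochondria, had 9.83, 9.88, 9.81 and 10.00 in Batf-/- day 3 arrays against 5.55, 3.85 and 4.07 in Batf-/- naive arrays. It had 10.06, 9.90, 9.98 and 9.54 in wild-type day 3 arrays against 3.44 and 3.85 in wild-type naive arrays. Batf-/- naive replicate 1 is the only naive array above the dim limit. Ak4 was at least 29.5-fold higher at day 3 in Batf-/- and 35.5-fold in wild-type cells. Its probe sets disagree in size: a second one changed by 5.32 in Batf-/- and 5.73 in wild-type cells, another by 1.65 and 1.39, and the last above the dim limit by -0.04 and -0.09, which did not pass. Ak4 is the only one of 20 called genes with another probe set above the dim limit in which a sign differed.

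Plod2, a lysyl hydroxylase of collagen, was at least 30.2-fold higher in Batf-/- and 30.0-fold in wild-type day 3 cells. P4ha2, a subunit of collagen prolyl hydroxylase, was at least 13.5-fold and 17.2-fold higher, and its relative P4ha1 changed by 2.84 ± 0.12 and 2.96 ± 0.13. Ankrd37, a small ankyrin repeat protein, changed by 4.6 ± 0.10 and 4.56 ± 0.11. Ndrg1, a stress-response protein, changed by 3.83 ± 0.12 in Batf-/- and 4.47 ± 0.13 in wild-type cells. Vegfa, the growth factor for blood vessels, changed by 1.65 ± 0.19 and 1.60 ± 0.21, and the histone demethylase Kdm3a by 0.83 ± 0.07 and 0.76 ± 0.08. When a gene's probe sets were averaged, values moved by over 1.5 times for Ak4 (2.49 in Batf-/- and 2.70 in wild-type cells), for Vegfa (2.75 in both) and, in Batf-/- cells, for Hif1a (1.10), Pdk1 (1.10) and Pfkfb3 (1.20), all of which passed. Across the 33 genes the changes of the 2 genotypes had a Pearson correlation of 0.985, and across all 18194 genes it was 0.945. These are descriptions across genes, which are not independent replicates.

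**Figure D3:**
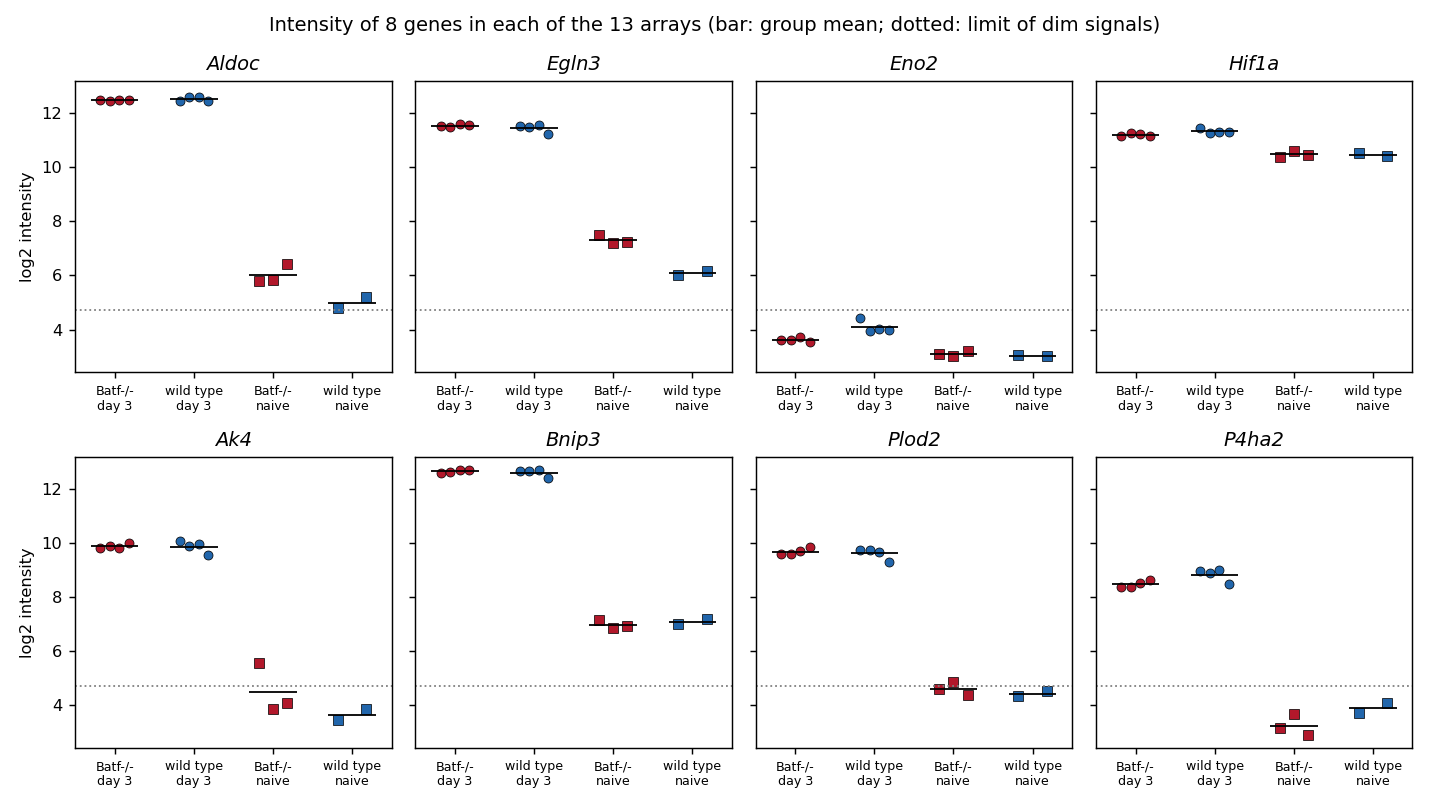
Log2 intensity (vertical axis) of 8 genes in each array, by group from left to right: Batf-/- day 3, wild-type day 3, Batf-/- naive and wild-type naive; points are arrays, bars are group means and the dotted line is the dim limit of 4.72. Aldoc and Egln3 lie higher in the Batf-/- than in the wild-type naive arrays and overlap at day 3, and Eno2 lies below the limit in every array.

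Setting the genotypes side by side at day 3 asks whether activated cells without Batf differ in these genes. Only Eno2 passed, lower in Batf-/- cells, which is 1 of 33 (3.03%), against 0.709% of all genes that were lower, and none was higher (0.665%). Its log2 intensity was 3.63, 3.61, 3.74 and 3.54 in Batf-/- day 3 arrays against 4.43, 3.95, 4.01 and 3.98 in wild-type day 3 arrays. All 4 Batf-/- arrays are below all 4 wild-type arrays, and every one is dim, so no fold is given. The difference was -0.47 ± 0.10 (adjusted p = 0.0314, n = 4 and 4). The call was lost without any 1 of the 4 Batf-/- day 3 arrays or without wild-type day 3 replicate 3 (adjusted p = 0.0572 to 0.107) and with the replicate number as a block (adjusted p = 0.0592), and the gene drops out when dim probe sets are left out.

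The other 32 genes did not pass at day 3. Their sizes were small: 31 of 33 differences were under 0.25, the median was -0.02 (0.01 for all genes), and 29 of 33 95% intervals lay within ±0.5, which is 1.41-fold. The intervals that reached further belong to Slc16a3, Eno2, P4ha2 and Ak4. All intervals use 1 spread pooled over the 4 groups, naive arrays included. Without adjustment, 3 of 33 (9.09%) had p below 0.05, against 12.6% of all genes, and the groups did not overlap in 1 of 33 (3.03%), against 12.8%. The pair next in size were P4ha2 (-0.35 ± 0.16, adjusted p = 0.392) and Ndrg1 (-0.17 ± 0.11, adjusted p = 0.601). Without wild-type day 3 replicate 4 they had -0.47 and -0.27, and neither passed. Hif1a had -0.15 ± 0.07 (adjusted p = 0.379), and a dimmer Hif1a probe set had -0.38 ± 0.08 (adjusted p = 0.0543).

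The width of the intervals at day 3 differed between steps. The difference in Slc2a1 was 0.10 (95% interval -0.14 to 0.35) and in Slc2a3 -0.07 (-0.23 to 0.09). Pfkp had -0.06 (-0.19 to 0.08), Pkm -0.04 (-0.18 to 0.10) and Ldha 0.01 (-0.13 to 0.15). Wider intervals were those of Hk2, 0.03 (-0.43 to 0.50), Tpi1, -0.02 (-0.37 to 0.33), and Pgam1, -0.12 (-0.49 to 0.25). Standard deviations in these genes were 0.71, 0.54 and 0.55 in Batf-/- naive arrays, which enter the pooled spread. At day 3 they were 0.07, 0.05 and 0.05 in Batf-/- and 0.18, 0.10 and 0.09 in wild-type arrays. Without wild-type day 3 replicate 4 the median of the 33 genes was -0.08, Hk2 had -0.05, and Eno2 was again the 1 gene that passed. Of the 6 measured genes listed for monocytes and macrophages, 1 was higher in Batf-/- cells at day 3 (0.665% of all genes). It was Ccr2 (1.26, adjusted p = 0.00376), with means of 7.88 in Batf-/- and 6.63 in wild-type arrays. The other 5 did not pass, and of the 6 differences 4 were positive and 2 negative. Lyz2 (4.18 in Batf-/- and 4.29 in wild-type arrays) and Cd14 (3.44 and 3.48) were dim in both genotypes. The part of Ccr2 was not tested.

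**Figure D4:**
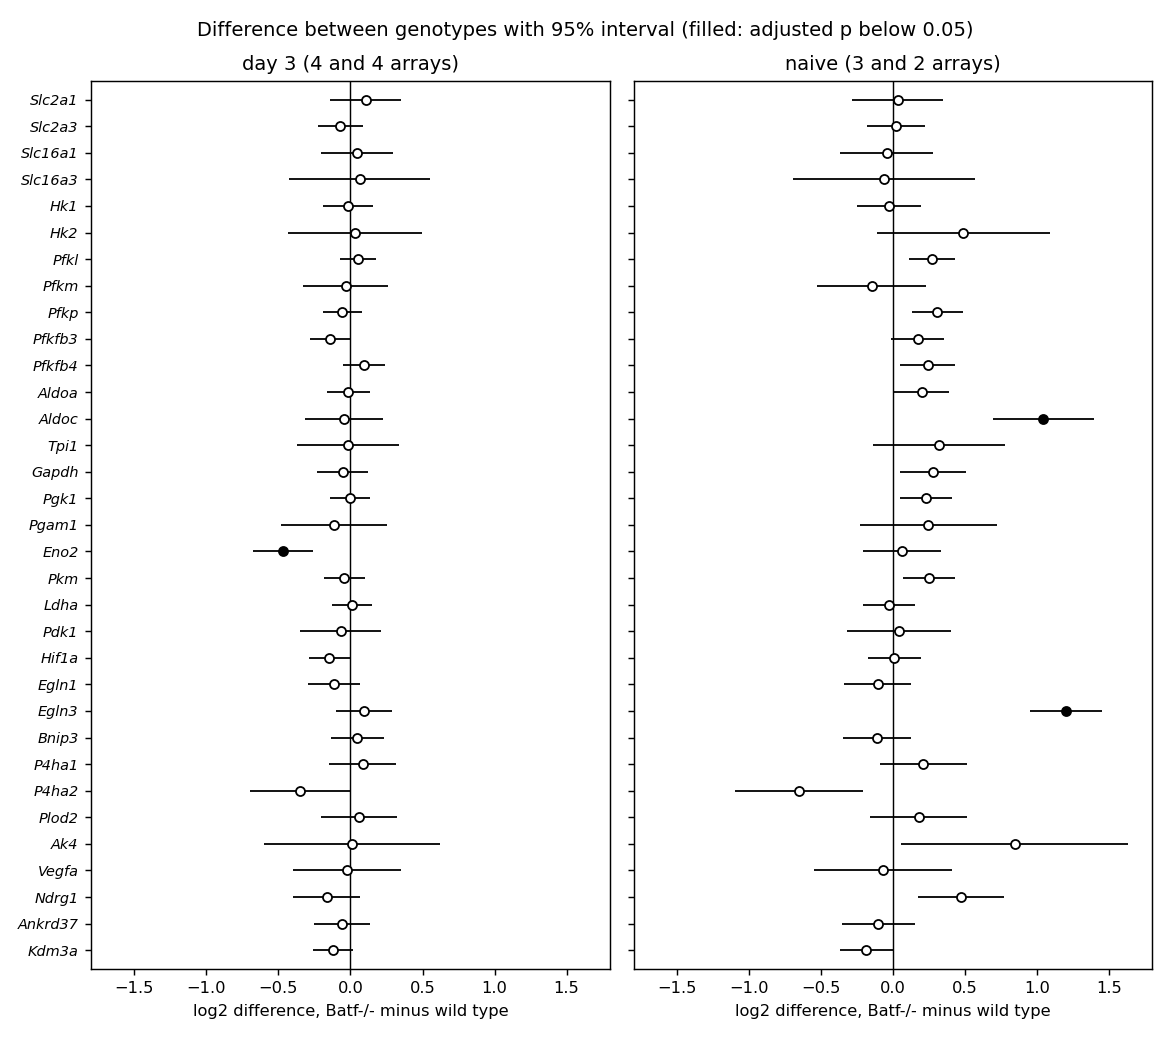
Difference between genotypes (horizontal axis, log2, Batf-/- minus wild type, with its 95% interval) for 33 genes at day 3 (left) and in naive cells (right); filled points passed the test. Eno2 (-0.47) is filled at day 3, and Egln3 (1.2) and Aldoc (1.04) are filled in naive cells.

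The comparison of naive cells asks whether the genotypes differ before activation. Egln3 and Aldoc were higher in Batf-/- naive cells, 2 of 33 (6.06%), against 0.813% of all genes that were higher, and none was lower (0.264%). Egln3 differed by 1.2 ± 0.11 (2.30-fold, adjusted p = 0.000372, n = 3 and 2). In a fit of all probe sets, a second one of Egln3 differed by 0.86 ± 0.13 (adjusted p = 0.00864). Aldoc differed by 1.04 ± 0.16 (2.06-fold, adjusted p = 0.00703), and its second probe set by 0.39 ± 0.18, which did not pass (adjusted p = 0.349). The array values above show both genes higher in each of the 3 Batf-/- naive arrays than in either wild-type naive array. For Aldoc the wild-type naive values lie near the dim limit.

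Leaving out Batf-/- naive replicate 1 changed neither call, with 1.10 for Egln3 (adjusted p = 0.000396) and 1.15 for Aldoc (adjusted p = 0.00452). Aldoc no longer passed without wild-type naive replicate 1 (0.84, adjusted p = 0.0767) or with the mean of both probe sets (0.72, adjusted p = 0.0512). When the fit used only the 5 naive arrays, neither gene passed (adjusted p = 0.283 for Egln3 and 0.596 for Aldoc). In that fit 1 of all 18194 genes passed, against 196 in the main fit.

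The naive differences of the 33 genes had a median of 0.17, against 0.0001 for all genes, and 0.07 without Batf-/- naive replicate 1. Without adjustment, 13 of 33 (39.4%) had p below 0.05, against 13.6% of all genes, and the groups did not overlap in 11 of 33 (33.3%), against 24.5%. Values that did not pass include Hk2 (0.49 ± 0.28), Ndrg1 (0.47 ± 0.14), Pfkp (0.31 ± 0.08) and, with both means dim, Ak4 (0.84 ± 0.36) and P4ha2 (-0.65 ± 0.21). Without Batf-/- naive replicate 2, Hk2 (0.87, adjusted p = 0.0120), Ndrg1 (0.57, adjusted p = 0.0483) and P4ha2 (-0.87, adjusted p = 0.0210) passed. Of all 18194 genes, 627 passed in that setting in either direction, against 196 in the main fit. Without replicate 1, Hk2 had 0.17 and Ak4 0.32. With an intensity trend in eBayes Pfkp passed as well (adjusted p = 0.0484), and 215 of all genes did. The intervals were wider than at day 3, and 19 of 33 lay within ±0.5.

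Markers of other cell types also differed between the naive groups. The 4 measured NK cell markers had means of 7.73, 7.05 and 7.31 in Batf-/- against 6.24 and 6.05 in wild-type naive arrays, and 2 of the 4 passed, higher. The 9 B cell markers had 7.77, 7.71 and 8.08 against 7.43 and 7.03, and 3 of the 9 passed, higher. Of the 6 measured monocyte and macrophage markers and of the 3 erythroid markers 1 each passed, higher, and of the 11 neutrophil and 5 platelet markers none did. Of all genes, 0.813% were higher. These lists and the members are compared over the same arrays, and their part in the differences of Egln3 and Aldoc was not tested.

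The difference between the 2 changes asks whether activation moved a gene further in one genotype. It passed for Egln3 (-1.11 ± 0.14, adjusted p = 0.00492) and Aldoc (-1.09 ± 0.20, adjusted p = 0.0320), both smaller in Batf-/- cells, 2 of 33 (6.06%) against 0.484% of all genes, and none was larger (0.165%). Without adjustment 10 of 33 had p below 0.05, against 11.9%. The naive arrays are those of the comparison above, so the results are not independent. The second probe sets gave -0.87 for Egln3 (adjusted p = 0.0485) and -0.53 for Aldoc (adjusted p = 0.402). At day 3 neither gene passed between genotypes (Egln3 0.09 ± 0.09, Aldoc -0.05 ± 0.12). Egln3 passed under all 22 alternative settings (-1.18 to -0.99). Aldoc passed under 12 of 22 (-1.38 to -0.81). It was lost without any 1 of the Batf-/- day 3 arrays, without wild-type day 3 replicates 1, 2 or 3 or without wild-type naive replicate 1 (adjusted p = 0.0533 to 0.129), with the mean of both probe sets (adjusted p = 0.100) and with the replicate block (-1.01, adjusted p = 0.0828). Without both Batf-/- naive replicate 1 and wild-type day 3 replicate 4 the differences were -1.09 for Egln3 (adjusted p = 0.000592) and -1.23 for Aldoc (adjusted p = 0.0217). Ndrg1 (-0.64 ± 0.18, adjusted p = 0.145), Ak4 (-0.83 ± 0.46, adjusted p = 0.515, and -0.30 without Batf-/- naive replicate 1) and Pfkp (-0.36 ± 0.10, adjusted p = 0.157) did not pass. The median over the 33 genes was -0.15, against 0.01 for all genes.

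Related genes outside the 36 were less uniform. Of 78 measured genes in 6 lists, 37 rose and 16 fell in Batf-/- cells, against 23.8% and 23.2% of all genes. In wild-type cells 42 rose and 12 fell, against 22.4% and 23% of all genes. The medians of the 78 were 0.23 and 0.29. None of the 78 passed between the genotypes at day 3 or in naive cells, or in the difference of changes. An unadjusted p below 0.05 was seen for 3 at day 3 and 9 in naive cells (12.6% and 13.6% of all genes). In the difference of changes 7 had one (11.9% of all genes). Among the other hypoxia targets 16 of 23 rose and 2 fell in Batf-/- cells, and 17 rose and 3 fell in wild-type cells. The largest rises were those of Nfil3, a transcription factor of lymphocytes (4.00 in Batf-/- and 4.52 in wild-type cells), and Ero1a, an oxidase of the endoplasmic reticulum (3.58 and 3.95). Adm, a vasodilator peptide and well-known hypoxia target, fell by 1.28 in Batf-/- and by 0.98 in wild-type cells. Without wild-type naive replicate 1 the wild-type value was -0.57 and did not pass (adjusted p = 0.0903).

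The lists next to glycolysis moved in both directions. Among 12 genes of reversal and side branches, Pgm1, which links glycogen to glycolysis, had the largest rise (2.60 in Batf-/- and 2.86 in wild-type cells) and Tigar, which lowers the activator of phosphofructokinase, the largest fall (-0.59 and -0.66). In the pentose phosphate pathway, which makes NADPH and ribose, Tkt rose (0.85 and 0.93) and Taldo1 fell (-0.49 and -0.51). Among 11 genes of pyruvate entry into mitochondria, Pdk3 rose (1.27 and 1.37) and Pdp1, a phosphatase that activates pyruvate dehydrogenase, fell (-0.58 and -0.37), while 5 in Batf-/- and 7 in wild-type cells did not pass. Of 14 other isoforms, Eno3 rose most (1.52 and 1.63) and Bpgm, which makes a regulator of haemoglobin, fell most (-1.64 and -1.06). Of 12 genes of the HIF machinery, Epas1 (Hif2a) rose most (0.96 and 1.04). The largest fall there was that of Os9 in Batf-/- (-0.41) and of Egln2, another prolyl hydroxylase, in wild-type cells (-0.24), which did not pass without wild-type naive replicate 1 (adjusted p = 0.137). With the mean of all probe sets Tigar had -0.30 and -0.25, Os9 had -0.24 in Batf-/- cells, and Epas1 had 0.60 and Pdp1 -0.72 in wild-type cells. Arnt, the partner of Hif1a, had 0.04 and -0.04 and did not pass.

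**Figure D5:**
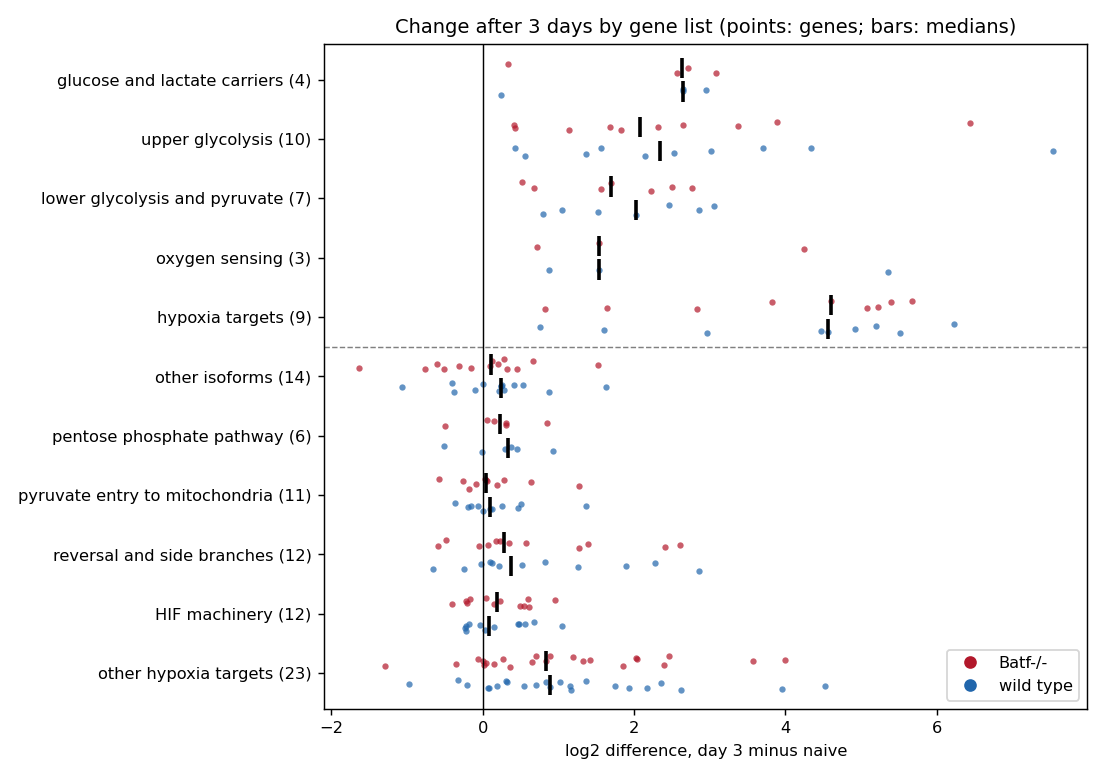
Change between naive and day 3 cells (horizontal axis, log2 difference) for the 5 roles of the 33 genes (above the dashed line) and 6 lists of related genes (below it), in Batf-/- (red, above) and wild-type cells (blue, below); points are genes, bars are medians and numbers in brackets are genes measured. The hypoxia targets have medians of 4.6 and 4.56, and the list of pyruvate entry has 0.04 and 0.10.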

How the data were processed

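RNA of 13 samples was hybridised to oligonucleotide arrays. The deposited values are probe set intensities on a linear scale, made by RMA (submitters' processing notes, per the labels, without a version), a method that corrects background, normalises arrays and combines probes. Here they were converted to log2, and the deposited intensities were not normalised again. Of 45101 probe sets, 34958 are assigned to 1 gene by the platform table, 932 to several and 9211 to none, and 18194 genes resulted, by the probe set with the highest mean. No dim probe set was left out. For Gapdh these are its control probe sets.

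One limma model (version 3.58.1, R 4.3.3) held the 4 group means of the 13 arrays (eBayes, 9 residual and 3.702 prior degrees of freedom), with 5 contrasts and Benjamini-Hochberg adjustment over all genes. All members are named; array values are given for those past the threshold between genotypes, the 4 largest rises and Hif1a, and of other lists the largest rise and fall. The fits were tested on simulated data. The members, lists and tests were chosen with earlier results of these data known. The alternatives were quantile normalisation, median centring, a filter on dim probe sets, averaging a gene's probe sets, robust or trended eBayes, weights for array quality, a replicate block, the compared groups alone and leaving out arrays. Promoter windows came from RefSeq (GRCm38.p6). All arrays of a group correlated between 0.988 and 0.998, and none was identical to another.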

Additional observations from a re-analysis of the deposited data

Results flagged for a closer look

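In a group of 4 arrays, a value was marked when it lay far from the other 3 compared with the range of the group, which chance does in about 1 in 20 groups. In wild-type day 3 cells this marked replicate 4, always as the lowest, in 8 genes. Its log2 intensity was 12.67 for Slc2a3 (the other arrays lay between 12.95 and 12.99), 6.30 for Slc16a3 (6.62 to 6.64), 10.52 for Hk2 (10.87 in each of the others) and 8.68 for Pfkm (8.90 to 8.93). It was 12.39 for Bnip3 (12.65 to 12.70), 10.39 for P4ha1 (10.60 to 10.62), 9.31 for Plod2 (9.68 to 9.76) and 11.44 for Ndrg1 (11.82 to 11.86). Replicate 1 was marked as the highest for Eno2, with 4.43 (3.95 to 4.01 in the other 3 arrays). No Batf-/- day 3 array was marked in any of the 33 genes.

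The change between naive and day 3 cells differed between Batf-/- and wild-type cells in a test of the difference itself for Egln3 (-1.11, adjusted p = 0.00492) and Aldoc (-1.09, adjusted p = 0.0320). Egln3 passed under every alternative setting. Aldoc did not pass with the mean of its probe sets (-0.81, adjusted p = 0.100), with the replicate block (-1.01, adjusted p = 0.0828) or in several fits without 1 array. Both genes were higher in Batf-/- than in wild-type naive cells. There 3 of 9 B cell and 2 of 4 NK cell markers were also higher, against 0.813% of all genes. The part of these markers was not tested.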

How the results depend on the processing

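The count of genes lower in Batf-/- cells at day 3, 1, was 0 with dim probe sets left out and with the replicate block, and 0 to 1 with 1 array left out. Over all 18194 genes, 250 passed at day 3 in either direction, and 125 with the replicate block. With dim probe sets left out it was 375 of 11783. In naive cells the count higher in Batf-/-, 2, was 1 with the mean of all probe sets and 0 with the compared groups alone, 3 with an intensity trend in eBayes, and 1 to 4 with 1 array left out. The count lower, 0, was 1 with array quality weights and 0 to 1 with 1 array left out. Over all 18194 genes, 196 passed in naive cells in either direction. This was 188 with the mean of all probe sets, 1 with the compared groups alone and 215 with an intensity trend. It was 459 with array quality weights and 627 without Batf-/- naive replicate 2. The naive median, 0.17, was 0.0666 to 0.198 with 1 array left out. The median change was 2.75 in wild-type cells with the mean of all probe sets, and with 1 array left out 2.29 to 2.53 in Batf-/- and 2.45 to 2.70 in wild-type cells. The count whose change was smaller in Batf-/- cells, 2, was 1 with the mean of all probe sets or the replicate block, 4 with array quality weights and 1 to 2 with 1 array left out. Over all 18194 genes, 118 passed in the difference of changes in either direction. This was 107 with the mean of all probe sets, 50 with the replicate block and 542 with array quality weights. For this last comparison all groups are compared, so no setting with fewer groups was run. The cause of these moves was not tested, except that leaving out dim probe sets removes Eno2.

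Leaving out both Batf-/- naive replicate 1 and wild-type day 3 replicate 4, chosen after seeing the data, gave 3 genes with a smaller change in Batf-/- cells (Ndrg1 joined, -0.67, adjusted p = 0.0492) and a naive median of 0.0666. In that setting 250 of all 18194 genes passed in the difference of changes, in either direction, against 118 in the main fit. Among related genes, also tried after seeing the data, the mean of all probe sets reversed the sign of Dlat (-0.21 in Batf-/- and -0.18 in wild-type cells) and Eloc (-0.0626 and -0.0648). Eloc then did not pass in Batf-/- (adjusted p = 0.379) or wild-type cells (adjusted p = 0.434), nor did Dlat in wild-type cells (adjusted p = 0.161). Deviations of samples with the same replicate number had correlations of -0.26 to 0.04. Deviations cancel out within each small group, so these values cannot show whether the numbers pair samples. With the replicate block Eno2 at day 3 (adjusted p = 0.0592), the Aldoc difference of changes (-1.01, adjusted p = 0.0828) and Slc16a1 in Batf-/- cells (adjusted p = 0.0950) no longer passed. Array number and signal over background limit what was detectable, and the naive signals of Eno2, Slc16a3, P4ha2, Plod2 and Ak4 are dim.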
